A study of Mus musculus with 24 samples.

Results

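Integrins and laminins are receptors and ligands in one of the main contacts between a cell and its basement membrane. The genes described here are the 38 genes, of 20961 listed in the deposited count table, whose symbols are those of integrin alpha or beta chains or of laminin alpha, beta or gamma chains, taken by matching the gene symbols and leaving out genes for integrin-binding proteins. They comprise 18 integrin alpha genes, 8 integrin beta genes, the integrin-beta-like gene Itgbl1, 5 laminin alpha genes, 3 laminin beta genes and 3 laminin gamma genes. Itgam is listed under 2 identifiers, and the second of these is kept apart below. All 38 passed the filter on low counts and entered the tests.

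The libraries came from heart tissue of male and female mice of the inbred strains C57BL/6J, a common laboratory strain, CAST/EiJ, an inbred line of wild origin (Mus musculus castaneus), and the obesity-prone NZO/HlLtJ. All animals carry the genotype label WT and the treatment label None. Mice ate a diet labelled 10% fat + fiber (control) or 44% fat + fiber (high in fat and sugar) from week 6 until hearts were collected at week 15. The study asks how the response to diet differs between genetic backgrounds. The 12 groups of strain, sex and diet held 2 libraries each, so a diet effect within a strain compared 4 libraries with 4 and a strain difference compared 8 with 8, with sexes and diets weighted equally. The labels do not say that the 2 libraries of a group were separate animals, so p-values measure the spread between these libraries, which may be partly technical.

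A laminin is a trimer of 1 alpha, 1 beta and 1 gamma chain that is secreted and polymerises into the sheet of the basement membrane. An integrin is a dimer of 1 alpha and 1 beta chain that spans the plasma membrane, holds collagen, laminin, fibronectin or a counter-receptor outside and links through talin and kindlin to actin inside. In heart muscle the laminin chain alpha2 surrounds the cardiomyocyte, which holds it through alpha7 with beta1 integrin and through dystroglycan, whereas alpha4 and alpha5 are known from vessel basement membranes.

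Total counts per library lay between 30205073 and 52254040. Levels are given in CPM (counts scaled to 1e+06 per TMM-scaled library total), and per kb of annotated exon where genes are compared with each other. That length joins the exons of all annotated transcripts of a gene, and the transcripts present in heart were not determined. The cardiomyocyte marker list summed to between 61860 and 76700 CPM in the 24 libraries and the skeletal muscle list to at most 4.13 CPM, as the heart label implies. Because whole tissue was sequenced, fewer cells of a type and less RNA per cell cannot be told apart.

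Promoters of 3 genes are shown because these genes carried some of the clearest strain differences, in opposite directions. They are the 250 bases before and 50 bases after the RefSeq start (GRCm38.p6, the C57BL/6J reference, minus strand in each case), at chr2:180225810-180226109 for Lama5, chr10:27616893-27617192 for Lama2 and chr13:115101915-115102214 for Itga1. Capitals mark GGGCGG or, on the other strand, CCGCCC. For Lama2 the RefSeq start differs from the outermost start in GENCODE M21. The latter is at chr10:27619758, upstream of the window, so the letters around it are not shown.
Lama5: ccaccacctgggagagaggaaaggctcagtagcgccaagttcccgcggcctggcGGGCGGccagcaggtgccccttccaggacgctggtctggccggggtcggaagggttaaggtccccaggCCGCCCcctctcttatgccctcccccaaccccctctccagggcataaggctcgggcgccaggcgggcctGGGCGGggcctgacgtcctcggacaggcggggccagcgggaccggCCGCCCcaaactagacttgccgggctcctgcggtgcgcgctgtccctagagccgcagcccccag
Lama2: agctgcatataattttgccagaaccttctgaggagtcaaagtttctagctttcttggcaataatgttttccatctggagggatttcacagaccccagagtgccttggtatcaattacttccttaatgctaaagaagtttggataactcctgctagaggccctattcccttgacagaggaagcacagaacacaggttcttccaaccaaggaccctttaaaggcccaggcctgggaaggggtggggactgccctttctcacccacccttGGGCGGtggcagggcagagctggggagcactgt
Itga1: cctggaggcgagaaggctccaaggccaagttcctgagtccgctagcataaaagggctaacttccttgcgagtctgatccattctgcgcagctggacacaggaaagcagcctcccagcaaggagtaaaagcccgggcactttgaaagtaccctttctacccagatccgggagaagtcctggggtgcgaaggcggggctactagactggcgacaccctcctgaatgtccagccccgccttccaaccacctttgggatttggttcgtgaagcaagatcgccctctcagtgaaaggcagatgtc

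The Lama5 window was 72.7% G or C with 24 CG dinucleotides, against a median of 52.7% and 7 over the 32851 promoters of the RefSeq table. It held GGGCGG on either strand 4 times. The Lama2 window was 50.3% G or C with 1 CG dinucleotide and 1 GGGCGG, and the Itga1 window was 56.7% G or C with 12 CG dinucleotides and no GGGCGG. On either strand GGGCGG occurs in 35.7% of promoters of the table, CCAAT in 37.4% and TATAAA in 13.6%. Neither CCAAT nor TATAAA occurs in these 3 windows, which says only that these letters are not there. Of the 38 genes, 24 had an entry in the promoter table. Promoter letters of CAST/EiJ and NZO/HlLtJ were not analysed here.

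Per kb of exon and over all 24 libraries, Itgb1, the beta chain shared by the muscle, collagen and laminin receptors, was the most abundant member, at 97.4 ± 5.85 CPM per kb (SD, n = 24). Lamb2 followed at 69.8 ± 3.61, then Lamc1 at 32.8 ± 5.16, Itgb5 at 22.1 ± 2.21 and Itga7 at 21.1 ± 2.67 CPM per kb. Itgb5 and Itga7 did not differ beyond their spread. Below them came Lama2 (14.4 CPM per kb), Lama5 (14.3), Itga5 (13.7), Lamb1 (13.1), Itga9 (12.1), Lama4 (9.39) and Itga6 (9.05). These means pool strains that differ: in C57BL/6J alone Lama5 was at 21.3 ± 1.65 CPM per kb, beside Itgb5 at 20.75 ± 0.948 and Itga7 at 19.7 ± 1.54, and in CAST/EiJ it was at 10.4 ± 1.07 CPM per kb. The most abundant laminin chains by this measure, beta2 and gamma1, are known as the partners of alpha2, alpha4 and alpha5 in muscle and vessels. The lowest were the second Itgam identifier at 0.025, Itgae at 0.063, Itgax at 0.12 and Lama1 at 0.128 CPM per kb. Lama1 was at 0.374 CPM per kb in CAST/EiJ and at 0.0039 and 0.00405 CPM per kb in C57BL/6J and NZO/HlLtJ.

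Strain differences were found in many of these genes. CAST/EiJ differed from C57BL/6J in 28 of the 38, or 73.7%, with 17 higher and 11 lower, where 58.8% of the 17203 genes tested were called (29.1% higher and 29.7% lower). NZO/HlLtJ differed from C57BL/6J in 16, or 42.1%, with 12 higher and 4 lower, against 35.5% of genes tested (17.9% higher, 17.6% lower). NZO/HlLtJ differed from CAST/EiJ in 22, or 57.9%, with 12 higher and 10 lower, against 60.3% of genes tested (30.5% higher, 29.8% lower). Calls are at a Benjamini-Hochberg adjusted p under 0.05 by edgeR's quasi-likelihood test over all genes. The median log2 difference of the 38 was 0.25 for CAST/EiJ minus C57BL/6J, 0.11 for NZO/HlLtJ minus C57BL/6J and -0.02 for NZO/HlLtJ minus CAST/EiJ, where the medians of all genes tested were 0.00 in each. The 3 contrasts share libraries in pairs, so they are given side by side and not as independent results. In an analysis of variance of log2(CPM + 0.5), strain took a median of 60% of a member's variance and diet 1.3%, against 50% and 1.1% over all genes tested. The strain share differed widely between members, from 0.9% for Lamb2, 2.5% for Itga10 and 10.2% for Itga4 to 92.5% for Lama2 and 97.1% for Lama1.

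**Figure D1:**
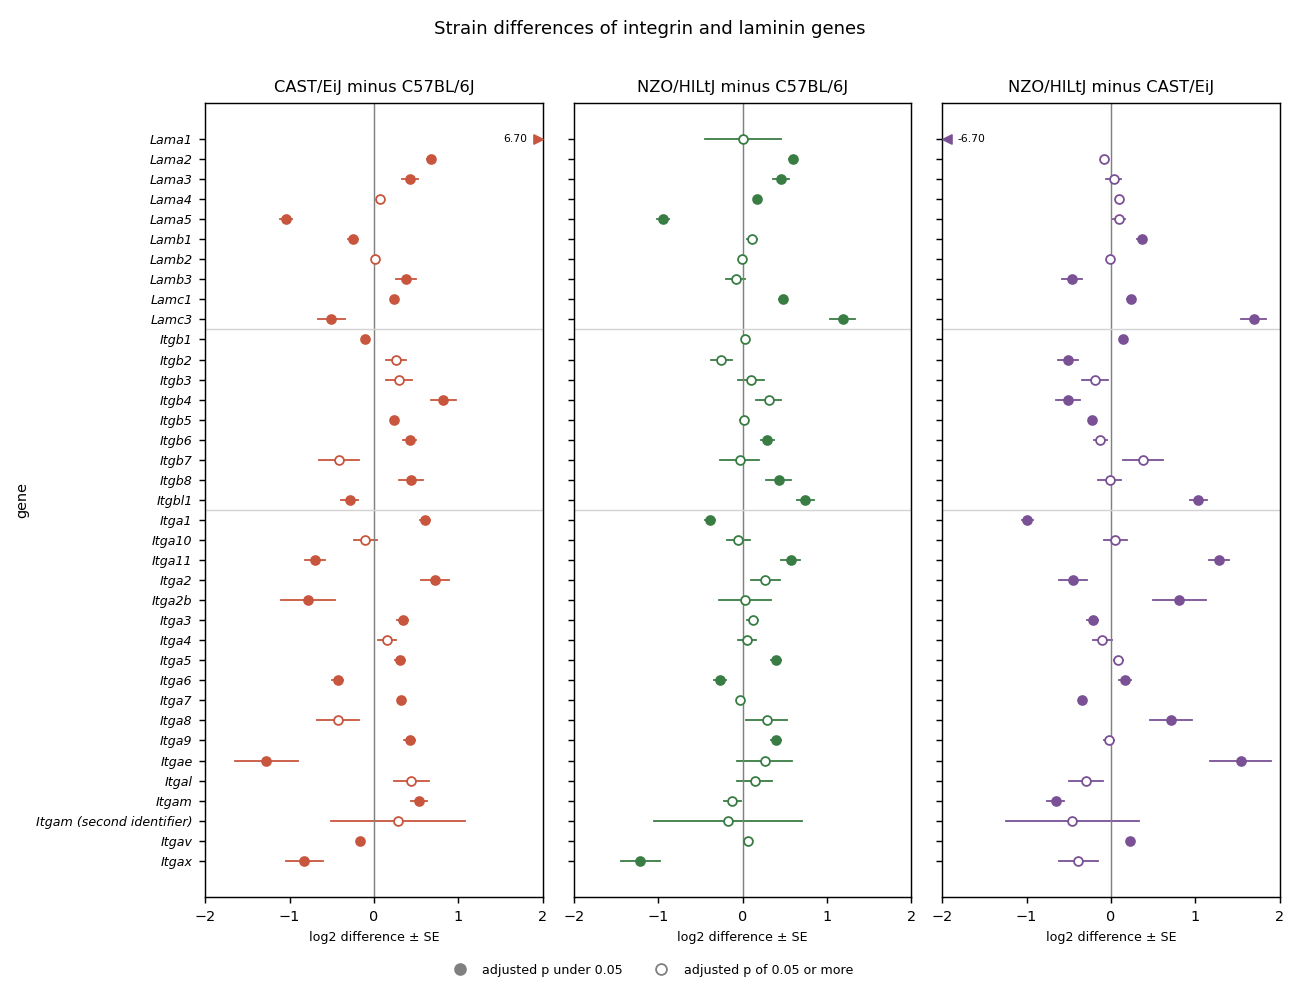
Log2 difference between strains with its SE for the integrin and laminin genes, laminins above the first gray line, beta integrins and Itgbl1 between the lines and alpha integrins below. Filled points passed adjusted p under 0.05, and the arrowheads for Lama1 stand for 6.70 and -6.70, outside the axis. Lama5 lies to the left of 0 in both comparisons with C57BL/6J, and Lama2 and Lamc1 lie to the right.

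Among the laminin alpha chains, Lama5 and Lama2 differed from C57BL/6J in opposite directions in both other strains. Lama5 is the alpha chain of laminin-511 and laminin-521, widely found in adult vessel and epithelial basement membranes. In the 8 C57BL/6J libraries its level ran from 220.6 through a median of 236.5 to 270.0 CPM, in CAST/EiJ from 96.3 through 119.3 to 131.0 CPM, and in NZO/HlLtJ from 104.7 through 126.2 to 152.2 CPM. Every C57BL/6J library was above every library of the other strains, whose ranges overlapped each other. The log2 difference was -1.04 ± 0.07 (SE, adjusted p = 1.81e-09) for CAST/EiJ and -0.94 ± 0.07 (adjusted p = 1.99e-08) for NZO/HlLtJ, each against C57BL/6J. NZO/HlLtJ minus CAST/EiJ was 0.10 ± 0.07 (adjusted p = 0.24) for Lama5.

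Lama2 encodes the muscle laminin alpha chain whose loss causes merosin-deficient congenital muscular dystrophy. It ran from 157.3 through 172.4 to 184.8 CPM in C57BL/6J, from 250.6 through 274.9 to 293.3 CPM in CAST/EiJ and from 237.8 through 258.4 to 296.0 CPM in NZO/HlLtJ. Here every C57BL/6J library was below every library of the other strains. The log2 difference from C57BL/6J was 0.68 ± 0.04 (SE, adjusted p = 9.03e-11) in CAST/EiJ and 0.60 ± 0.04 (adjusted p = 1.73e-09) in NZO/HlLtJ, and -0.08 ± 0.04 (adjusted p = 0.117) for NZO/HlLtJ minus CAST/EiJ. The identifier numbers in the titles fall into 3 ranges, and libraries of the same range, sex and diet could be compared between strains. No NZO/HlLtJ library lies in the first range, so differences of this strain are partly confounded with range. Each such comparison set 1 library against 1, or 2 NZO/HlLtJ libraries against 1. In the first range Lama5 was lower in CAST/EiJ than in C57BL/6J in all 4 such pairs, by -0.92 to -1.33, and Lama2 was higher in all 4, by 0.44 to 0.81. In the second and the third range, Lama5 of NZO/HlLtJ against C57BL/6J was -0.63 and -0.92, and Lama2 was 0.64 and 0.57.

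Expressed as shares of the alpha chains, Lama5 led in C57BL/6J and Lama2 in the other strains. Per kb of exon, Lama5 made up 51.8% ± 1.95 (SD, n = 8) of the laminin alpha chain level in C57BL/6J, 27.6% ± 2.07 in CAST/EiJ and 29.6% ± 2.65 in NZO/HlLtJ. Lama2 made up 25.6% ± 1.37, 44.9% ± 2.71 and 42.3% ± 1.74. The Lama2 to Lama5 ratio per kb lay between 0.453 and 0.569 in C57BL/6J, between 1.39 and 2.10 in CAST/EiJ and between 1.22 and 1.83 in NZO/HlLtJ, so that Lama5 was the leading alpha chain in all 8 C57BL/6J libraries and Lama2 in all 16 others. The summed alpha chain level was 41.1 ± 1.84 CPM per kb in C57BL/6J, 37.5 ± 1.61 in CAST/EiJ and 37.7 ± 2.48 in NZO/HlLtJ. The shares are a description of the same values and were not tested. They depend on the joined exon length, 16.3 kb for Lama2 and 11.4 kb for Lama5. A shorter Lama2 transcript in heart would raise its share and the ratio in all 3 strains, so the size of a lead within a strain is uncertain. The length cancels where the ratio is compared between strains only if they use the same transcripts, which was not determined.

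**Figure D2:**
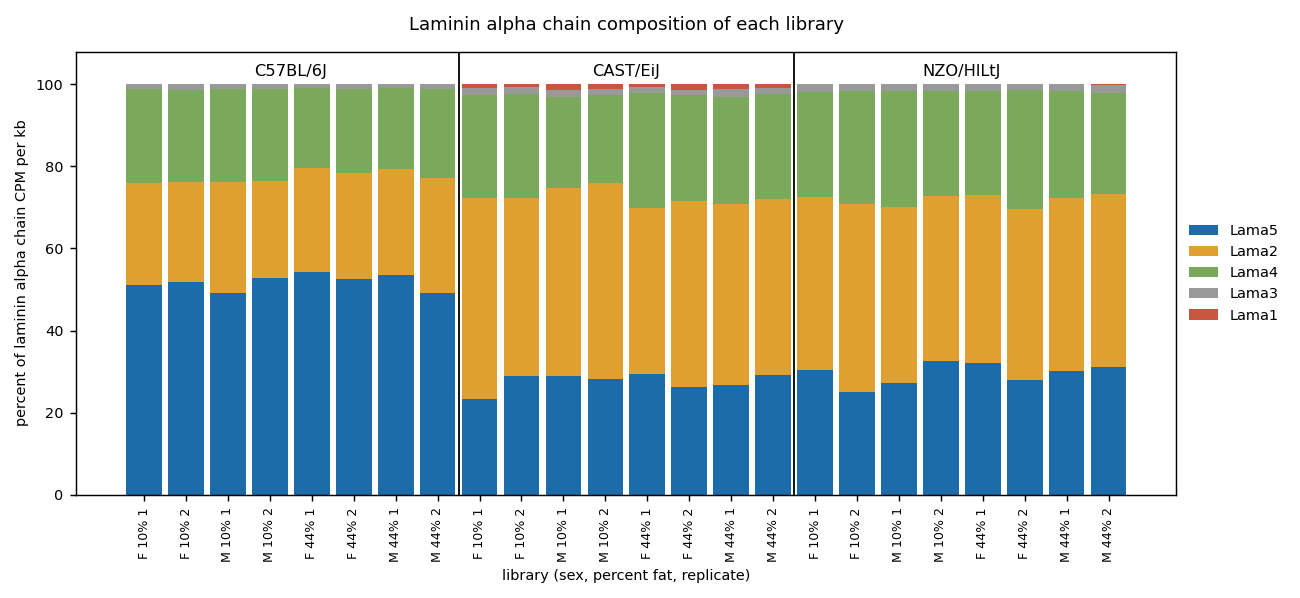
Share of each laminin alpha chain in the summed CPM per kb of the 5 alpha chains, 1 bar per library, named by sex, percent fat and replicate. The blue Lama5 part is larger than the orange Lama2 part in each of the 8 C57BL/6J bars and smaller in each of the other 16.

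Lama1 encodes the alpha chain of laminin-111, an embryonic and epithelial laminin. It was near 0 in C57BL/6J and NZO/HlLtJ and present in CAST/EiJ. Its counts were between 0 and 4 in the C57BL/6J libraries (11 in all), between 0 and 4 in NZO/HlLtJ (13 in all) and between 78 and 231 in CAST/EiJ (1195 in all), which corresponds to 2.13 to 5.15 CPM. The ratio of CAST/EiJ to C57BL/6J, per library total, was 96.9 (95% exact interval 54.0 to 195, counting error only) and to NZO/HlLtJ 88.2 (51.4 to 166). The fitted log2 difference from C57BL/6J was 6.70 ± 0.34 (SE, adjusted p = 3.29e-12), a value that depends on how the fit treats the counts of 0. With at most 4 counts in any library of the other strains, Lama1 passed the filter (minimum count of 10) only through CAST/EiJ. Its strain calls therefore rest on the strain that let it into the test, and the counts are the plainer description. Even in CAST/EiJ, Lama1 was 1.01% ± 0.325 of the alpha chain level per kb.

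Of the other alpha chains, Lama3, an epithelial chain, was higher in both strains than in C57BL/6J, at 0.42 ± 0.09 (SE, adjusted p = 0.0008) and 0.45 ± 0.09 (adjusted p = 0.000927). Its mean level was 4.86 ± 0.569 CPM (SD, n = 8) in C57BL/6J, 6.50 ± 0.725 in CAST/EiJ and 6.69 ± 1.28 in NZO/HlLtJ, and the ranges overlapped. Lama4, the vascular chain of laminin-411, was 106.7 ± 5.23 CPM in C57BL/6J, 112.8 ± 12.1 in CAST/EiJ and 120.5 ± 9.04 in NZO/HlLtJ. For Lama4, NZO/HlLtJ minus C57BL/6J passed the test at 0.18 ± 0.04 (adjusted p = 0.0037), and CAST/EiJ minus C57BL/6J did not, at 0.08 ± 0.04 (adjusted p = 0.144), but did with library totals, at 0.15 (adjusted p = 0.00243). Antisense genes share 1.8% of Lama3 exon bases and 3.9% of Lama2 exon bases, and without a stated strand setting their reads cannot be told apart.

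Lamb2, the beta chain of muscle and vessel laminins, had the lowest share of variance taken by strain of the 38 genes, 0.9%. Its 8 libraries lay between 398.8 and 451.2 CPM in C57BL/6J (median 424.7), between 394.1 and 491.8 in CAST/EiJ (median 425.4) and between 393.7 and 444.6 in NZO/HlLtJ (median 427.0). The log2 differences were 0.02 ± 0.03, -0.00 ± 0.03 and -0.02 ± 0.03 (SE, adjusted p = 0.7, 1.00 and 0.692) for CAST/EiJ and NZO/HlLtJ against C57BL/6J and NZO/HlLtJ against CAST/EiJ. With library totals in place of TMM factors, which moved the median of all genes by up to 0.08, the first of these Lamb2 differences was 0.09 and passed the test (adjusted p = 0.0334). Lamb1, the more widely expressed beta chain, was lower in CAST/EiJ (112.2 ± 17.4 CPM) than in C57BL/6J (132.6 ± 6.76), at -0.25 ± 0.06 (adjusted p = 0.000753), and higher in NZO/HlLtJ (143.6 ± 11.7) than in CAST/EiJ, at 0.37 ± 0.06 (adjusted p = 1.54e-05). Lamb3, the beta chain of epithelial laminin-332, was 11.0 ± 1.52, 14.3 ± 1.44 and 10.4 ± 1.96 CPM in the same order of strains. It was higher in CAST/EiJ than in C57BL/6J, at 0.38 ± 0.11 (adjusted p = 0.00911), and lower in NZO/HlLtJ than in CAST/EiJ, at -0.46 ± 0.11 (adjusted p = 0.00225). Lamb2 was 82.2%, 83.9% and 81.2% of the beta chain level per kb in C57BL/6J, CAST/EiJ and NZO/HlLtJ.

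Lamc1, the gamma chain of nearly all muscle and vessel laminins, differed between all 3 strains. On the GRCm38 coordinates of the deposited annotation it spans chr1:153218922-153332786 on the minus strand. Its level ran from 201.2 through 231.1 to 243.9 CPM in C57BL/6J, from 249.4 through 265.7 to 316.6 CPM in CAST/EiJ and from 286.0 through 316.7 to 370.7 CPM in NZO/HlLtJ. C57BL/6J did not overlap with either other strain, and these overlapped each other. The differences were 0.24 ± 0.04 (SE, adjusted p = 0.000133) in CAST/EiJ and 0.48 ± 0.04 (adjusted p = 8.67e-08) in NZO/HlLtJ against C57BL/6J, and 0.24 ± 0.04 (adjusted p = 0.000156) for NZO/HlLtJ minus CAST/EiJ.

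Lamc3 encodes the laminin gamma3 chain. It was 1.35 ± 0.488 CPM (SD, n = 8) in C57BL/6J, 0.934 ± 0.236 in CAST/EiJ and 3.17 ± 1.43 in NZO/HlLtJ. NZO/HlLtJ was higher than C57BL/6J by 1.18 ± 0.15 (SE, adjusted p = 2.97e-06) and higher than CAST/EiJ by 1.69 ± 0.15 (adjusted p = 1.10e-08), without overlap with CAST/EiJ. CAST/EiJ minus C57BL/6J was -0.51 ± 0.16 (adjusted p = 0.00912). An antisense gene, Gm13441, shares 6.3% of Lamc3 exon bases.

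**Figure D3:**
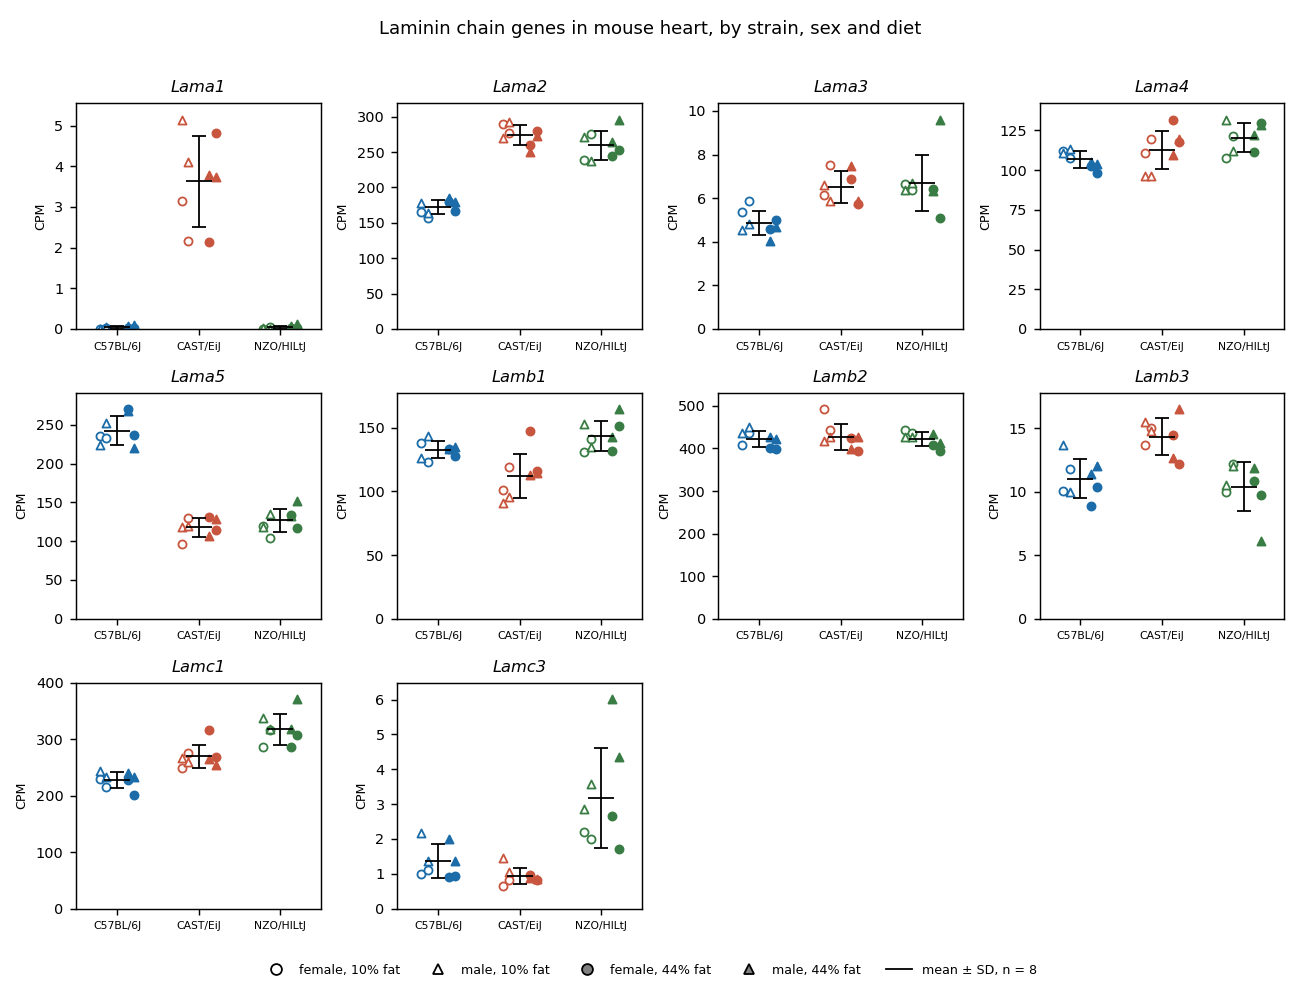
CPM of laminin chain genes in each of the 24 libraries by strain, with circles for females, triangles for males, open symbols for 10% fat and filled symbols for 44% fat, and the mean ± SD of 8 libraries in black. Lama5 stands between 220.6 and 270.0 CPM in C57BL/6J and at or below 152.2 CPM elsewhere, and Lama1 lies between 2.13 and 5.15 CPM in CAST/EiJ and at or below 0.109 CPM in the other strains.

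The collagen-binding integrin Itga1, whose product pairs with beta1 and binds collagen IV, had a different level in each strain. It ran from 52.01 through 56.2 to 59.8 CPM in C57BL/6J, from 77.9 through 86.4 to 95.7 CPM in CAST/EiJ and from 34.0 through 42.7 to 57.03 CPM in NZO/HlLtJ. CAST/EiJ stood above both other strains without overlap, and C57BL/6J and NZO/HlLtJ overlapped. The differences were 0.61 ± 0.06 (SE, adjusted p = 1.12e-07) for CAST/EiJ and -0.38 ± 0.06 (adjusted p = 8.05e-05) for NZO/HlLtJ against C57BL/6J, and -0.99 ± 0.06 (adjusted p = 1.41e-10) for NZO/HlLtJ minus CAST/EiJ. In libraries of the same range, sex and diet, NZO/HlLtJ minus C57BL/6J was -0.08 in the second range and -0.39 in the third. The gene model Gm49395 on the same strand shares 3.7% of Itga1 exon bases.

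Itga11, which encodes the fibrillar collagen receptor of fibroblasts, had the reverse order. Its libraries lay between 3.09 and 6.24 CPM in C57BL/6J (median 4.94), between 1.98 and 4.96 CPM in CAST/EiJ (median 2.68) and between 5.09 and 8.02 CPM in NZO/HlLtJ (median 6.83). NZO/HlLtJ did not overlap with CAST/EiJ and exceeded it by 1.28 ± 0.12 (SE, adjusted p = 1.91e-08). Against C57BL/6J, Itga11 was -0.70 ± 0.12 (adjusted p = 4.65e-05) in CAST/EiJ and 0.57 ± 0.11 (adjusted p = 0.000565) in NZO/HlLtJ. Itgbl1, which encodes a secreted protein with integrin-like repeats and no receptor function as a beta chain, was 9.10 ± 0.941 CPM (SD, n = 8) in C57BL/6J, 7.59 ± 1.93 in CAST/EiJ and 15.6 ± 3.99 in NZO/HlLtJ. It was higher in NZO/HlLtJ than in C57BL/6J by 0.74 ± 0.10 (SE, adjusted p = 7.26e-06) and than in CAST/EiJ by 1.03 ± 0.10 (adjusted p = 4.10e-08). For CAST/EiJ minus C57BL/6J, Itgbl1 was -0.29 ± 0.10 (adjusted p = 0.0178), a call lost without C57BL/6J female 10% fat library 1 or C57BL/6J male 10% fat library 2, where the adjusted p reached at most 0.0544. This Itgbl1 call was also lost with library totals in place of TMM factors and in the first identifier range alone, where the adjusted p reached up to 0.552 and the difference came as near to 0 as -0.16.

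Most fibroblast markers, like Itga11 and Itgbl1, were higher in NZO/HlLtJ than in the other strains. In CAST/EiJ against C57BL/6J they had no single direction. All 10 of 10 tested were higher in NZO/HlLtJ than in C57BL/6J, 9 of 10 were higher in NZO/HlLtJ than in CAST/EiJ, and for CAST/EiJ against C57BL/6J 1 was higher and 4 lower. Of all genes tested, 17.9% were higher in the first of these contrasts, 30.5% in the second and 29.1% in the CAST/EiJ one, where 29.7% were lower. Their summed level lay between 1978 and 2287 CPM in C57BL/6J, between 1662 and 2016 CPM in CAST/EiJ and between 2671 and 3367 CPM in NZO/HlLtJ. The lowest mean of a fibroblast marker was that of Tcf21, at 6.53 CPM in C57BL/6J. Schwann cell markers were also higher in NZO/HlLtJ than in C57BL/6J in 5 of 8, with sums of 18.4 to 28.4 CPM in C57BL/6J and 29.5 to 38.9 CPM in NZO/HlLtJ. Their part in the result for these members was not tested.

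The other collagen receptors were low. Itga2, the platelet and epithelial collagen receptor, was 0.819 ± 0.274 CPM in C57BL/6J, 1.35 ± 0.426 in CAST/EiJ and 0.967 ± 0.242 in NZO/HlLtJ. Its difference between CAST/EiJ and C57BL/6J was 0.72 ± 0.17 (SE, adjusted p = 0.00114). Itga2 of NZO/HlLtJ minus CAST/EiJ was -0.45 ± 0.16 (adjusted p = 0.0234), a call that was kept in 19 of 24 fits that each left out 1 library and was lost with the identifier range as a term (adjusted p = 0.0564). Itga10 was not called in any strain contrast, at 2.15, 2.00 and 2.07 CPM, and it shares 33.5% of its exon bases with the gene model Gm42957 on the same strand, so its counts are uncertain.

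Among the laminin receptors, Itga7 and Itga6 differed in opposite directions in CAST/EiJ. Itga7, the alpha chain of the muscle laminin receptor, ran from 143.7 through 157.1 to 181.4 CPM in C57BL/6J, from 187.7 through 191.8 to 220.4 CPM in CAST/EiJ and from 148.7 through 157.3 to 161.7 CPM in NZO/HlLtJ. CAST/EiJ stood above both other strains without overlap, by 0.32 ± 0.04 (SE, adjusted p = 3.36e-07) over C57BL/6J, and NZO/HlLtJ was lower than CAST/EiJ by -0.34 ± 0.04 (adjusted p = 1.18e-07). NZO/HlLtJ minus C57BL/6J was -0.02 ± 0.04 (adjusted p = 0.644), and 0.03 with library totals in place of TMM factors.

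Itga6, the laminin receptor of vessels and epithelia, was 95.3 ± 6.71 CPM (SD, n = 8) in C57BL/6J, 70.6 ± 7.597 in CAST/EiJ and 79.3 ± 7.23 in NZO/HlLtJ. It was lower in CAST/EiJ by -0.43 ± 0.07 (SE, adjusted p = 2.92e-05), without overlap, and in NZO/HlLtJ by -0.27 ± 0.07 (adjusted p = 0.00485), with overlap. NZO/HlLtJ minus CAST/EiJ was 0.17 ± 0.07 (adjusted p = 0.0415), and this Itga6 call was kept in 9 of 24 fits that left out 1 library and in 4 of 8 other settings. The call was lost with library totals, without the filter on low counts, with only the strains compared and with the identifier range as a term (adjusted p = 0.132). Itga3, another receptor of alpha5-containing laminins, was higher in CAST/EiJ (18.6 ± 1.56 CPM) than in C57BL/6J (14.7 ± 1.55), at 0.34 ± 0.06 (adjusted p = 0.000146), and than in NZO/HlLtJ (16.0 ± 0.873). Itgb4, the beta partner of alpha6 in hemidesmosomes, was 4.51 ± 0.858, 8.05 ± 1.58 and 5.59 ± 1.14 CPM in C57BL/6J, CAST/EiJ and NZO/HlLtJ. Its CAST/EiJ libraries did not overlap with those of C57BL/6J (0.82 ± 0.14, adjusted p = 0.000105). A long noncoding gene on the other strand shares 7.7% of Itgb4 exon bases.

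Itgb1 itself varied little. Its libraries lay between 381.9 and 416.4 CPM in C57BL/6J (median 406.4), between 357.8 and 411.0 CPM in CAST/EiJ (median 372.3) and between 389.5 and 462.6 CPM in NZO/HlLtJ (median 410.5), all overlapping. The difference of CAST/EiJ from C57BL/6J, -0.11 ± 0.03 (SE, adjusted p = 0.00777), was lost with library totals in place of TMM factors, where it was -0.03 (adjusted p = 0.411). NZO/HlLtJ minus CAST/EiJ was 0.14 ± 0.03 (adjusted p = 0.00087), and NZO/HlLtJ minus C57BL/6J was 0.04 ± 0.03 (adjusted p = 0.445) and, with library totals, 0.09 (adjusted p = 0.0369). Per kb, Itgb1 was 78.1% ± 0.825, 73.2% ± 0.683 and 78.0% ± 1.14 (SD, n = 8) of the beta chain level in C57BL/6J, CAST/EiJ and NZO/HlLtJ, while Itgb5 was 16.4%, 19.5% and 16.2%.

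Among receptors of fibronectin, vitronectin and latent TGF-beta, Itga5 and Itga9 were higher in both strains than in C57BL/6J. Itga5, the classical fibronectin receptor, was 57.1 ± 5.12 CPM (SD, n = 8) in C57BL/6J, 70.8 ± 7.30 in CAST/EiJ and 75.1 ± 5.30 in NZO/HlLtJ, or 0.31 ± 0.06 (SE, adjusted p = 0.000124) and 0.40 ± 0.06 (adjusted p = 1.95e-05) above C57BL/6J. Itga9, a tenascin and osteopontin receptor, was 76.4 ± 6.97, 102.2 ± 7.13 and 100.4 ± 9.45 CPM, or 0.42 ± 0.06 (adjusted p = 1.04e-05) and 0.40 ± 0.06 (adjusted p = 5.31e-05) above C57BL/6J. Between NZO/HlLtJ and CAST/EiJ neither Itga5 (0.09 ± 0.06) nor Itga9 (-0.03 ± 0.06) passed the test.

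Itgb5 was 73.7 ± 3.37, 86.9 ± 4.71 and 74.6 ± 6.71 CPM, and CAST/EiJ exceeded C57BL/6J without overlap by 0.24 ± 0.04 (SE, adjusted p = 3.67e-05). Its alpha partner Itgav was lower in CAST/EiJ (31.6 ± 1.68 CPM) than in C57BL/6J (35.3 ± 1.04), at -0.16 ± 0.04 (adjusted p = 0.00103), a call lost with library totals, at -0.09 (adjusted p = 0.074). Itgav of NZO/HlLtJ (36.95 ± 1.87 CPM) exceeded that of CAST/EiJ by 0.23 ± 0.04 (adjusted p = 3.63e-05). Itgb6, an activator of latent TGF-beta, was higher than in C57BL/6J in CAST/EiJ (0.42 ± 0.08, adjusted p = 0.000139) and in NZO/HlLtJ (0.30 ± 0.08, adjusted p = 0.00643). Itgb8, with the same known role, was 0.44 ± 0.14 (adjusted p = 0.012) and 0.43 ± 0.14 (adjusted p = 0.0256) above C57BL/6J, the second of which was kept in 17 of 24 fits that left out 1 library and was lost with the identifier range as a term (adjusted p = 0.0802). Itga8 was called once, higher in NZO/HlLtJ than in CAST/EiJ (0.71 ± 0.25, adjusted p = 0.0252), and kept in 16 of 24. Itgb3 and Itga4 were not called in any strain contrast. Antisense or opposite-strand genes share 5.9% of Itgav, 5.0% of Itga8 and 8.0% of Itga4 exon bases.

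**Figure D4:**
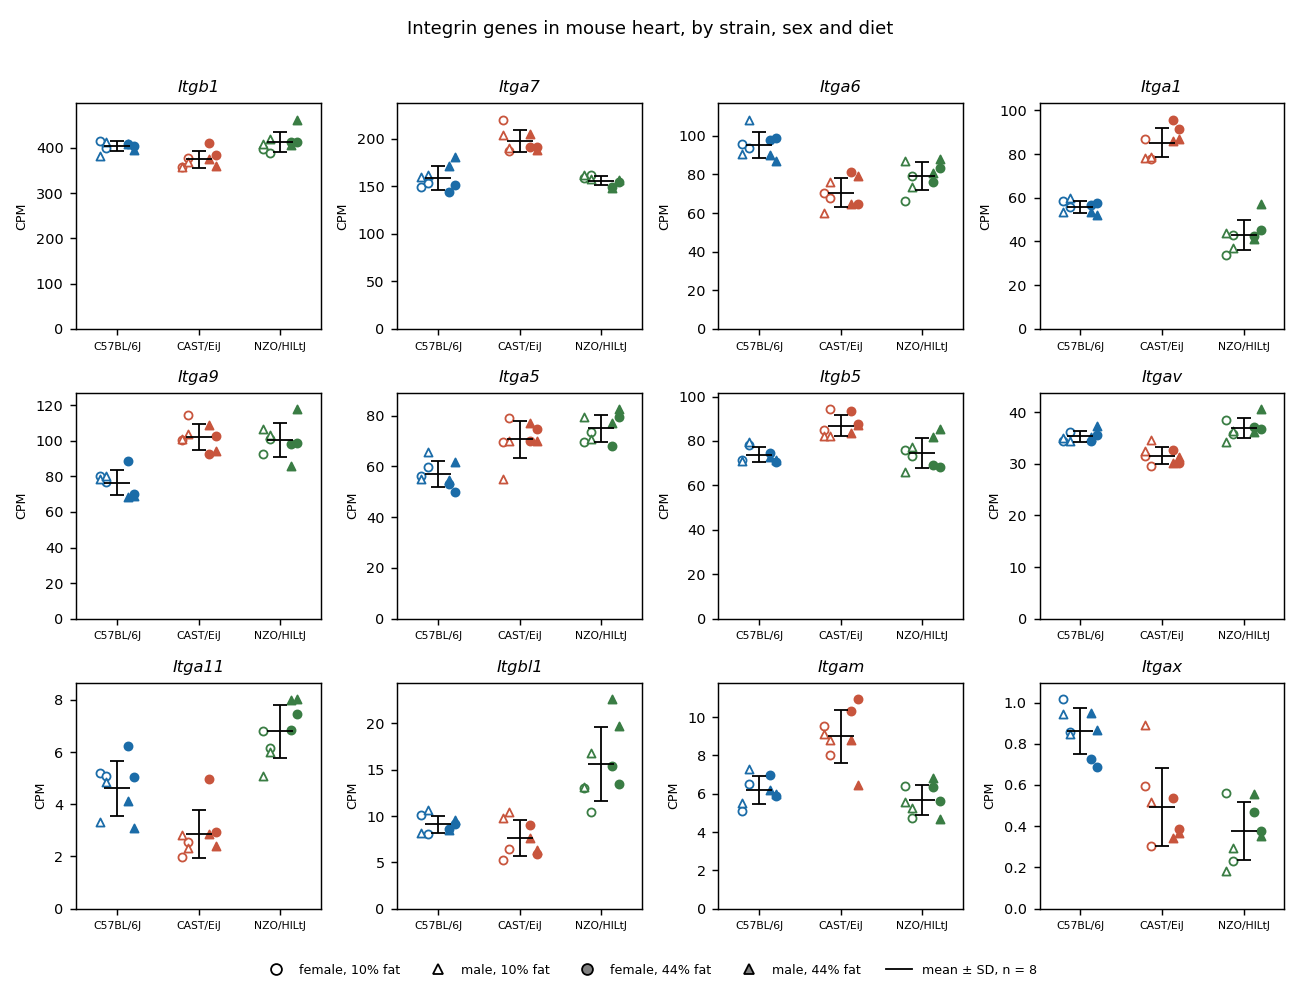
CPM of 12 integrin genes in each of the 24 libraries by strain, with symbols for sex and diet and the mean ± SD of 8 libraries. Itga1 and Itga7 stand highest in CAST/EiJ, Itga11 and Itgbl1 stand highest in NZO/HlLtJ, and the Itgb1 ranges of the 3 strains overlap.

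The leukocyte and platelet integrins were low in all libraries. Itgax, the CD11c chain of dendritic cells and some macrophages, was 0.861 ± 0.112 CPM (SD, n = 8) in C57BL/6J, 0.493 ± 0.191 in CAST/EiJ and 0.377 ± 0.143 in NZO/HlLtJ. It was lower than in C57BL/6J by -0.82 ± 0.22 (SE, adjusted p = 0.00339) and -1.21 ± 0.23 (adjusted p = 0.000344), without overlap between C57BL/6J and NZO/HlLtJ. Itgam, the CD11b chain of myeloid cells, was 6.18 ± 0.729, 9.01 ± 1.38 and 5.69 ± 0.792 CPM. CAST/EiJ was higher than C57BL/6J by 0.53 ± 0.10 (adjusted p = 0.000138), and NZO/HlLtJ was lower than CAST/EiJ by -0.65 ± 0.10 (adjusted p = 1.44e-05). Itgam shares 68.7% of its exon bases with the second identifier, which GENCODE M21 names Gm49368 and which had 111 counts over all libraries, so the division of reads between the pair is uncertain.

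Itgb2, the beta partner of these chains, was lower in NZO/HlLtJ than in CAST/EiJ (-0.51 ± 0.12, adjusted p = 0.00157) and was not called against C57BL/6J, at 0.26 ± 0.12 in CAST/EiJ and -0.25 ± 0.12 in NZO/HlLtJ. Itgae, the CD103 chain of tissue-resident T cells and some dendritic cells, had between 0 and 30 counts per library. It was lower in CAST/EiJ than in C57BL/6J by -1.28 ± 0.38 (adjusted p = 0.00692) and higher in NZO/HlLtJ than in CAST/EiJ by 1.54 ± 0.36 (adjusted p = 0.00124). With at most 0.245 CPM in any CAST/EiJ library, Itgae passed the filter only through the other strains. Both calls therefore rest on the strains that let Itgae into the test, and its counts are the plainer description. Itgal and Itgb7 were not called in any strain contrast. The marker counts that follow stand beside 58.8% of all genes tested called for CAST/EiJ minus C57BL/6J, 35.5% for NZO/HlLtJ minus C57BL/6J and 60.3% for NZO/HlLtJ minus CAST/EiJ. Of 12 macrophage and neutrophil markers, CAST/EiJ had 3 higher and 4 lower than C57BL/6J, and NZO/HlLtJ had 3 lower, with summed levels between 217.6 and 315.1 CPM over all libraries. Of 10 T and NK cell markers, 7 were lower in CAST/EiJ than in C57BL/6J and 9 higher in NZO/HlLtJ than in CAST/EiJ. Their sums were 1.28 to 3.41 CPM in C57BL/6J, 0.342 to 1.498 in CAST/EiJ and 1.58 to 4.75 in NZO/HlLtJ. In CAST/EiJ the means of single markers ran from 0.0268 CPM (Nkg7) to 0.314 CPM (Cd4). Markers so low may have passed the filter only through the other strains, which favours calls of lower values in CAST/EiJ. The part of these cells in the values of Itgae, Itgam and Itgax was not tested.

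Itga2b, the platelet fibrinogen receptor, ranged widely, between 1.59 and 11.1 CPM in C57BL/6J, 1.52 and 4.51 CPM in CAST/EiJ and 2.79 and 11.7 CPM in NZO/HlLtJ. Its differences of -0.78 ± 0.32 (SE, adjusted p = 0.0479) for CAST/EiJ minus C57BL/6J and 0.81 ± 0.32 (adjusted p = 0.0401) for NZO/HlLtJ minus CAST/EiJ were kept in 6 and 11 of 24 fits that left out 1 library. In the other settings they were kept in 3 of 9 and 6 of 8. Both were lost with the identifier range as a term and without the filter on low counts. The first was also lost with library totals, with limma-voom, with only the strains compared and in the first range alone. Of 9 platelet markers, 5 were lower and 1 higher in CAST/EiJ than in C57BL/6J, against 29.7% and 29.1% of all genes tested. Their summed level was 14.2 to 34.2 CPM in C57BL/6J and 13.1 to 25.2 CPM in CAST/EiJ, and their part in the Itga2b values was not tested.

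Partners of these genes were taken from 4 lists. Of 34 focal adhesion genes tested, 22 were higher and 6 lower in CAST/EiJ relative to C57BL/6J (median log2 difference 0.14), and 18 were higher and 5 lower in NZO/HlLtJ (median 0.13), where the median of all genes was 0.00 in both. For reference, 29.1% of all genes tested were higher and 29.7% lower in CAST/EiJ, and 17.9% and 17.6% in NZO/HlLtJ, each against C57BL/6J, and 30.5% and 29.8% in NZO/HlLtJ against CAST/EiJ. The counts of the other partner lists are to be read against these shares. In CAST/EiJ against C57BL/6J the smallest adjusted p values were those of Cd151, a tetraspanin that binds laminin-binding integrins (1.15 ± 0.04), Parva, a member of the integrin-linked kinase complex (0.50), the talin Tln2 (0.54) and vinculin, Vcl (0.47). In NZO/HlLtJ against C57BL/6J they were those of Parvb (0.34), Parva (0.27), Itgb1bp1 (0.34) and Cd81 (-0.21). Between NZO/HlLtJ and CAST/EiJ, 10 were higher and 19 lower.

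Of 18 basement membrane partners, 9 were higher and 3 lower in CAST/EiJ relative to C57BL/6J (median 0.21), 10 were higher and none lower in NZO/HlLtJ against C57BL/6J (median 0.31), and 5 were higher and 7 lower in NZO/HlLtJ than in CAST/EiJ. Nid2, a nidogen that links laminin to collagen IV, was 1.34 higher on the log2 scale in CAST/EiJ and 0.33 higher in NZO/HlLtJ, each against C57BL/6J. Its relative Nid1 was lower in CAST/EiJ (-0.40) and higher in NZO/HlLtJ (0.33). Bcam, the Lutheran receptor that binds laminin alpha5, was -0.14 in CAST/EiJ and 0.41 in NZO/HlLtJ, both passing the test.

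Of 17 genes of the dystroglycan complex, the second laminin alpha2 receptor, 4 were higher and 4 lower in CAST/EiJ relative to C57BL/6J (median -0.04), 6 higher and 3 lower in NZO/HlLtJ (median 0.10), and 8 higher and 4 lower in NZO/HlLtJ than in CAST/EiJ (median 0.07). Over all genes tested 58.8%, 35.5% and 60.3% were called in these contrasts. Dag1, dystroglycan itself, was 0.28 higher in NZO/HlLtJ and 0.04 in CAST/EiJ, which did not pass the test. Sspn, sarcospan, was lower in both, at -0.66 in CAST/EiJ and -0.67 in NZO/HlLtJ, and the syntrophin Sntb1 was higher in both, at 2.57 and 0.49. Of 19 integrin ligands and latent TGF-beta genes, 6 were higher and 5 lower in CAST/EiJ relative to C57BL/6J (median -0.03), 7 higher and 3 lower in NZO/HlLtJ (median 0.22), and 9 higher and 4 lower in NZO/HlLtJ than in CAST/EiJ (median 0.20). Col1a1 and Col1a2, ligands of alpha11 integrin, were 0.74 and 0.68 higher in NZO/HlLtJ than in C57BL/6J, and Vtn, vitronectin, was lower in both strains, at -0.84 and -0.64. Col1a1 and Col3a1 also stand in the fibroblast marker list.

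The diet question is whether the 44% fat diet changed these genes within a strain. No member passed the test in any strain or over all strains. In C57BL/6J 0 of 38 were called, where 0.0407% of genes tested were (0.0349% higher and 0.00581% lower), with 2 members at an unadjusted p under 0.05 and a smallest adjusted p of 0.831. In CAST/EiJ 0 were called, as were 0% of all genes, with 4 members below an unadjusted 0.05 and a smallest adjusted p of 0.537. In NZO/HlLtJ 0 were called, again with 0% of all genes, 3 at an unadjusted p under 0.05 and a smallest adjusted p of 0.607. Over all 3 strains 0 were called, against 0.157% of genes tested (0.128% higher and 0.0291% lower), with 5 at an unadjusted p under 0.05 and a smallest adjusted p of 0.282. DESeq2 and limma-voom also called 0 members in each of these 4 contrasts. The members' median log2 changes were -0.08 in C57BL/6J, 0.03 in CAST/EiJ and 0.05 in NZO/HlLtJ, with medians of all genes of -0.00, -0.01 and -0.01.

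**Figure D5:**
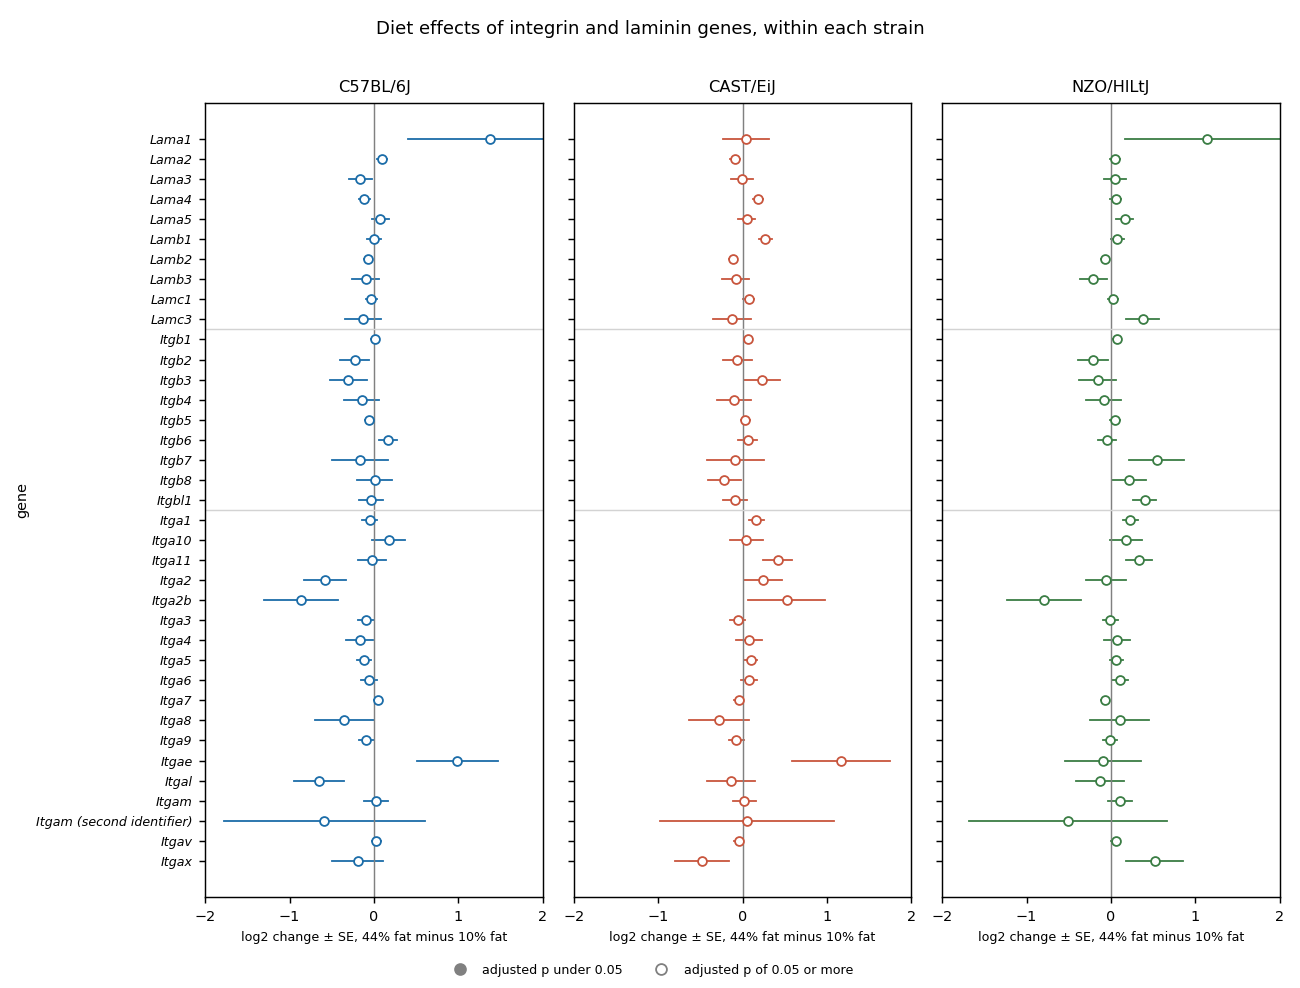
Log2 change from 10% to 44% fat with its SE for the integrin and laminin genes in each strain. No point is filled, since no member passed adjusted p under 0.05, and the genes with the widest bars are those with few counts, such as Lama1 outside CAST/EiJ and the second Itgam identifier.

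Lamb2 had the smallest adjusted p over all strains. In C57BL/6J the 10% fat libraries were at 408.6, 437.3, 437.0 and 451.2 CPM and the 44% fat libraries at 401.4, 398.8, 427.6 and 421.7 CPM. In CAST/EiJ they were at 491.8, 443.6, 416.5 and 426.1 CPM on 10% fat and 424.7, 394.1, 397.8 and 427.1 CPM on 44% fat. In NZO/HlLtJ they were at 444.6, 435.9, 427.1 and 426.9 CPM on 10% fat and 407.1, 393.7, 433.4 and 413.7 CPM on 44% fat. The diet groups overlapped in each strain, with lower means on 44% fat in all 3. The change was -0.07 ± 0.04, -0.11 ± 0.04 and -0.07 ± 0.04 (SE) within strains and -0.09 ± 0.03 (adjusted p = 0.282) over them, and diet took 36% of the variance of log2(CPM + 0.5) of Lamb2.

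In CAST/EiJ, Lamb1 had the smallest adjusted p of the members. It stood at 101.3, 119.2, 91.2 and 95.6 CPM on 10% fat and at 147.1, 116.3, 113.0 and 114.3 CPM on 44% fat. The groups overlapped through the second value on 10% fat, and the highest value was that of CAST/EiJ female 44% fat library 1. The change was 0.27 ± 0.08 (SE, adjusted p = 0.537), and 0.18 ± 0.08 (adjusted p = 0.963) without that library. The same library had the highest CAST/EiJ value of Lama4 (131.8 CPM), Lamc1 (316.6 CPM), Itga1 (95.7 CPM) and Itga11 (4.96 CPM). Its summed endothelial markers, 1603 CPM against 1200 to 1387 CPM in the other CAST/EiJ libraries, and its summed basement membrane partners, 4644 against 3006 to 3738 CPM, were also the highest of that strain. Their part in the member values was not tested. Outside the first identifier range, the CAST/EiJ libraries on 10% fat lie in the second range and those on 44% fat in the third. In that part of the CAST/EiJ comparison, diet cannot be told apart from range for any member.

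In NZO/HlLtJ the 3 members at an unadjusted p under 0.05 were Itgbl1, Itga1 and Itga11. Itgbl1 stood at 13.1, 10.5, 13.1 and 16.8 CPM on 10% fat and at 15.4, 13.4, 22.6 and 19.7 CPM on 44% fat, with overlapping groups and a change of 0.40 ± 0.13 (SE, adjusted p = 0.607). Itga1 stood at 34.0, 42.8, 44.0 and 37.1 CPM on 10% fat and at 42.5, 45.1, 41.3 and 57.03 CPM on 44% fat, with a change of 0.23 ± 0.09 (adjusted p = 0.616). Without NZO/HlLtJ male 44% fat library 1 the Itga1 change was 0.34 and passed the test (adjusted p = 0.0461), the only diet call of a member in any fit made. In this strain the second identifier range holds the female 10% fat and male 44% fat libraries and the third the female 44% fat and male 10% fat libraries, so that diet compared within a sex cannot be told apart from range.

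The main subunits of muscle and vessel receptors and laminins did not pass the diet test. Over all 3 strains the log2 change was 0.05 ± 0.03 (SE) for Itgb1, -0.02 ± 0.03 for Itga7, 0.04 ± 0.05 for Itga6, 0.01 ± 0.03 for Itgav, 0.01 ± 0.03 for Itgb5, 0.02 ± 0.03 for Lama2, 0.04 ± 0.04 for Lama4, 0.10 ± 0.06 for Lama5, 0.12 ± 0.05 for Lamb1 and 0.02 ± 0.04 for Lamc1, none passing the test. None of the 4 partner lists held a gene called for diet over all strains. A p that misses the threshold does not show that the diets gave equal levels. Genes of few counts, such as Itgae and Lama1 outside CAST/EiJ, could not show a change of ordinary size at this depth.

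Whether the diet effect differed between strains was tested directly. For CAST/EiJ minus C57BL/6J 0 members and 0% of genes were called, for NZO/HlLtJ minus C57BL/6J 0 members and 0.00581% of genes, and for NZO/HlLtJ minus CAST/EiJ 0 members and 0% of genes. Members at an unadjusted p under 0.05 numbered 5, 3 and 2, with 0 called by DESeq2 and by limma-voom as well. Lama4 had the smallest p, with a diet effect 0.30 ± 0.09 (SE, adjusted p = 0.681) more positive in CAST/EiJ than in C57BL/6J. Its own changes were 0.18 ± 0.06 in CAST/EiJ, -0.12 ± 0.06 in C57BL/6J and 0.05 ± 0.06 in NZO/HlLtJ.

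Sex was compared over all strains, 12 female against 12 male libraries. Of the 38 members 1 was called, or 2.63%, where 0.372% of genes tested were called. It was Lamc3, which was lower in females by -0.71 ± 0.12 (SE, adjusted p = 0.00904). In C57BL/6J the females were at 0.983, 1.10, 0.897 and 0.948 CPM and the males at 2.18, 1.36, 1.99 and 1.38 CPM. In CAST/EiJ the females were at 0.66, 0.813, 0.959 and 0.813 CPM and the males at 1.45, 1.04, 0.884 and 0.854 CPM. In NZO/HlLtJ the females were at 2.21, 1.99, 2.67 and 1.72 CPM and the males at 2.86, 3.57, 6.01 and 4.35 CPM. Females and males did not overlap in C57BL/6J or NZO/HlLtJ, and did in CAST/EiJ.

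No member was called for a difference of the sex effect between strains, as were 0% of genes in each of the 3 contrasts, with 6, 3 and 6 members at an unadjusted p under 0.05. In these, 0 members were called by DESeq2 and by limma-voom as well. Lamc3 kept its call in all 24 fits that left out 1 library and in the 7 other settings tried. The call covers a gene of at most 6.01 CPM. Only reads in the 6.3% of its exon bases shared with the antisense gene Gm13441 could not be told apart.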

How the data were processed

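RNA of 24 mouse heart libraries was measured by polyA RNA sequencing. The authors deposited expected counts per gene (estimated counts that need not be whole; 19.3% were not whole numbers, tolerance 1e-06) and gene positions; a second matrix of transformed values was not used here. Per the submitters' processing notes the build is GRCm38 and DESeq2 was used, with no version or role given. The aligner, the counter, its strand setting and whether reads of CAST/EiJ and NZO/HlLtJ were aligned to their own genomes were not given in the sources used here, so the part of mapping in the strain differences was not tested.

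Expected counts were rounded and analysed in R 4.3.3 with edgeR 4.0.16: filterByExpr with a minimum count of 10 and total of 15 left 17203 of 20961 genes, TMM factors lay between 0.954 and 1.06, and 1 robust quasi-likelihood fit with 12 group means gave 14 contrasts, adjusted over all genes by Benjamini-Hochberg and called under 0.05. SE is the absolute log2 change divided by the square root of F. The script was tested on simulated data. limma 3.58.1 (voom) and DESeq2 1.42.0 were alternatives, with other scalings, filters, an identifier-range term, subsets of libraries and each library left out. Counts in this design limit precision to counting error plus a common biological coefficient of variation of 0.127.

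Exon lengths and overlaps came from GENCODE M21 (GRCm38), where all 38 genes were found, 31 with the same start and end; 12 share exon bases with another gene, 8 of them on the opposite strand. Promoters came from RefSeq (GRCm38.p6). Genes given with statistics were, per contrast, the called members (up to 12 by adjusted p) plus Itgb1, Itga7, Itga6, Itgav, Itgb5, Lama2, Lama4, Lama5, Lamb1, Lamb2 and Lamc1, with other called members named as well, and up to 4 called genes of each partner list by adjusted p. The members, lists and rule were chosen with earlier results of these data known. Replicate numbers were given in accession order and pair no libraries. Marker lists not mentioned with a result are given in the closing section. 1 member is included in the counts and is not reported here by itself.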

Additional observations from a re-analysis of the deposited data

Results flagged for a closer look

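Within each strain's 8 libraries, the highest or lowest value of a member was set against Dixon's criterion, which chance alone meets in about 1 in 20 groups; 10 of 114 groups met it. CAST/EiJ female 44% fat library 1 stood out for Itga11 at 4.96 CPM (next 2.94) and for Lamc1 at 316.6 CPM (next 275.9), the library that also had the highest summed endothelial markers of its strain. NZO/HlLtJ male 44% fat library 2 stood out for Itgb1 at 462.6 CPM (next 419.5), for Lama3 at 9.60 CPM (next 6.71) and, as the lowest of its strain, for Lamb3 at 6.12 CPM (next 9.75). NZO/HlLtJ female 10% fat library 2 stood out for Itga2b at 11.7 CPM (next 6.77). CAST/EiJ male 10% fat library 1 was the lowest of its strain for Itga5 at 55.1 CPM (next 69.8), and its summed adipocyte markers were 1653 CPM against at most 353.1 CPM in the other CAST/EiJ libraries. That sum mostly reflects 1 gene of the list, Fasn, at 283.7 ± 514.6 CPM (SD, n = 8) in CAST/EiJ. Adipoq was 4.98 ± 5.03 CPM and Plin1 7.32 ± 9.73 CPM there, each with an SD above its mean. The part of adipose tissue in the values of this library was not tested. CAST/EiJ male 10% fat library 2 stood out for Itgal at 6.56 CPM (next 5.06). C57BL/6J female 44% fat library 1 stood out for Itgae at 1.03 CPM (next 0.402), and C57BL/6J male 10% fat library 1 for Itgb7 at 1.42 CPM (next 0.948).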

How the results depend on the processing

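The counts of members called in the 14 contrasts stayed within 1.5 times under every scaling, filter, test and subset tried. Over the fits that left out 1 library they ranged from 27 to 29 for CAST/EiJ minus C57BL/6J, 15 to 17 for NZO/HlLtJ minus C57BL/6J, 19 to 23 for NZO/HlLtJ minus CAST/EiJ, 0 to 1 for diet in NZO/HlLtJ, and 1 to 1 for sex. Of 28, 16 and 22 strain calls, 19, 15 and 17 were kept in every setting; in CAST/EiJ minus C57BL/6J, those of Itga2, Itga2b, Itgae, Itgav, Itgax, Itgb1, Itgb8, Itgbl1 and Lamc3 were lost in the first identifier range alone, which has fewer libraries. The range term ended the calls of Itga2b in CAST/EiJ minus C57BL/6J, Itgb8 in NZO/HlLtJ minus C57BL/6J and Itga2, Itga2b and Itga6 in NZO/HlLtJ minus CAST/EiJ. Both Itgae calls were absent at a minimum count of 30. Counts over all genes moved more. DESeq2 called 38, 29, 13 and 105 genes for diet in C57BL/6J, CAST/EiJ, NZO/HlLtJ and over all, 9, 4 and 3 for the strain differences of diet, 137 for sex, and 11, 6 and 35 for the strain differences of sex (edgeR: 7, 0, 0, 27; 0, 1, 0; 64; 0, 0, 0). With only one strain's libraries, diet in C57BL/6J gave 43; the first range alone gave 2 in C57BL/6J, 62 in CAST/EiJ, 1 for their diet difference and 5 for their sex difference; the range term gave 4 in CAST/EiJ, 17 over all and 4 for the CAST/EiJ and C57BL/6J diet difference, where RLE factors gave 1. The diet difference of NZO/HlLtJ and C57BL/6J fell to 0 with library totals, limma-voom or only those strains. Leaving out 1 library gave 1 to 21, 0 to 18, 0 to 113 and 4 to 144 for diet in the same order, 0 to 8, 0 to 3 and 0 to 4 for its strain differences, 39 to 79 for sex, and 0 to 27, 0 to 0 and 0 to 18 for its strain differences. The cause was not tested.

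Signs were compared at 2 decimals. No strain call changed sign, and uncalled values near 0 did. With library totals these were Itgav (-0.0124) and Itgb1 (-0.031) for diet in C57BL/6J and Itga7 (0.0282) for NZO/HlLtJ minus C57BL/6J; with the first range alone, Itga6 (0.0131) and Itgb5 (0.0446) for diet in C57BL/6J. Over the fits that left out 1 library, diet values ranged in C57BL/6J from -0.1182 to 0.0109 for Itga6, -0.0232 to 0.0346 for Itgb1 and -0.0787 to 0.0106 for Lamc1; in CAST/EiJ from -0.0144 to 0.1636 for Itga6, -0.1014 to 0.0145 for Itga7 and -0.05 to 0.1642 for Lama5; in NZO/HlLtJ from -0.0052 to 0.1092 for Itgb5, -0.0061 to 0.0969 for Lama2 and -0.0329 to 0.0791 for Lamc1; and over all strains from -0.0085 to 0.0296 for Itgb5. Itgb5 for NZO/HlLtJ minus C57BL/6J ranged from -0.0152 to 0.042. Library totals moved the median of all genes by at most 0.08.

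No paired analysis was possible because the replicate numbers were given in accession order and pair no libraries. Libraries of the same identifier range, sex and diet were compared between strains instead for some members, and the range was fitted as a term. Low counts limit what is detectable for Lama1, Itgae and the second Itgam identifier.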

Other observations

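Other marker lists gave these counts beside the strain differences, where 58.8% of all genes tested were called in CAST/EiJ and 35.5% in NZO/HlLtJ, each against C57BL/6J. Of 12 endothelial markers, 4 were higher and none lower in CAST/EiJ than in C57BL/6J, and 3 were higher and 2 lower in NZO/HlLtJ, with sums of 1226 to 1360, 1200 to 1603 and 1167 to 1310 CPM in C57BL/6J, CAST/EiJ and NZO/HlLtJ. Of 10 smooth muscle and pericyte markers, 4 were higher and 3 lower in CAST/EiJ and 1 higher and 3 lower in NZO/HlLtJ, with sums of 1356 to 1571, 1210 to 1400 and 1090 to 1238 CPM. Of 10 cardiomyocyte markers, 2 were higher and 3 lower than in C57BL/6J in each other strain. Of 5 skeletal muscle markers, 2 were lower than in C57BL/6J in each other strain. Of 6 atrial markers, 2 were lower in CAST/EiJ and 1 higher in NZO/HlLtJ. No marker of B and plasma cells or of epithelium and mesothelium was called in either comparison with C57BL/6J, and of 8 adipocyte markers 1 was higher and 1 lower in NZO/HlLtJ.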
